A study of Mus musculus with 12 samples.

Results

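Inguinal white fat of mice labelled IRE1(alpha)-/- was compared with that of mice labelled WT after 3 days at 8 °C. The comparison covers every gene that reached 1 FPKM (fragment counts divided by transcript length and by library size) in at least 3 of the 6 libraries from these mice, which is 12633 of 24344 genes in the deposited table. Inguinal fat is a subcutaneous depot that responds to cold by forming heat-producing beige adipocytes. Total RNA came from C57BL/6J mice with an age label of 10 weeks. Before the final 3 days they were housed at room temperature (4 weeks) and then at 30 °C (6 weeks), which spares a mouse most of its extra heat production. AKO_8C is the group of 3 mice with the genotype label IRE1(alpha)-/- held at 8 °C, and WT_8C is the group of 3 mice with the label WT held at 8 °C. A further pair of groups, AKO_30C and WT_30C, had 3 mice each that stayed at 30 °C for those days, and it is used here to ask whether a difference was also present without cold. The series title calls the genotypes Ern1f/f AKO and Ern1f/f, which makes a floxed Ern1 allele common to both, while the labels neither expand AKO nor name a Cre driver.

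IRE1 alpha, the product of Ern1, is a sensor in the membrane of the endoplasmic reticulum (ER). When unfolded proteins accumulate it cuts the Xbp1 mRNA, so that a splice form encoding the active transcription factor XBP1s is made, and it can also cleave other ER-bound transcripts. A separate sensor, PERK, and other kinases phosphorylate the initiation factor eIF2 alpha, which raises translation of Atf4 and leads to the integrated stress response, a programme of amino acid supply, tRNA charging and secreted stress hormones. In cold-exposed fat, noradrenaline induces mitochondrial biogenesis, fatty acid oxidation and uncoupling protein.

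The FPKM of the 6 libraries summed to between 675321 and 743185, and 12433 to 12583 genes reached 1 FPKM in each. The tables hold no read counts, so depth is unknown and no counting interval is given. Pearson correlations of log2(FPKM + 1) were 0.9776 to 0.9866 between libraries of a group and 0.9733 to 0.9797 between the groups. WT_8C replicate 1 stood apart in genes of epithelium. Krt18, a keratin of simple epithelium, was 0, 0.0572 and 0.0546 FPKM in AKO_8C, against 24.3, 1.35 and 0.447 FPKM in WT_8C, and Wfdc18, a secreted protein of mammary epithelium, was 0, 0.493 and 0.250 FPKM in AKO_8C, against 45.4, 1.56 and 2.36 FPKM in WT_8C. The 18 epithelial markers summed to 17.54, 13.07 and 16.86 FPKM in AKO_8C, against 192.2, 34.9 and 29.12 FPKM in WT_8C, so the sums did not overlap. Much of the sum in WT_8C replicates 2 and 3 was 1 gene, Cdsn, at 21.8 and 17.4 FPKM. In other members the groups overlapped, such as Epcam at 1.68, 1.23 and 2.19 FPKM in AKO_8C, against 9.38, 1.27 and 1.69 FPKM in WT_8C. WT_8C replicate 2 stood apart in immediate early genes, described with that list. Adipocyte markers were abundant in every library, with sums of 64570, 59600 and 64820 FPKM in AKO_8C and 87150, 57150 and 58150 FPKM in WT_8C.

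Ern1 (chromosome 11, 106397620 to 106487796, RefSeq on GRCm38.p6) was 6.83, 6.92 and 7.37 FPKM in AKO_8C, against 4.53, 5.16 and 5.20 FPKM in WT_8C. Every AKO_8C library thus lay above every WT_8C library, the opposite of a lower transcript level, and the difference did not pass the test (log2 fold change 0.43, SE 0.12, limma adjusted p 0.0723). The gene value sums all exons and the labels do not say which exon the allele removes, so it does not check the genotype labels, and AKO_8C means the libraries that carry that label throughout. Xbp1 (chromosome 11, 5520641 to 5525993) was 111, 64.5 and 145 FPKM in AKO_8C, against 73.1, 90.7 and 71.7 FPKM in WT_8C. Its groups overlapped, with the highest and the lowest value both in AKO_8C (log2 fold change 0.37, SE 0.25, limma adjusted p 0.443), and the spliced form is not separated in gene values.

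After cold, 223 of 12632 genes tested (all but the small RNA gene Snora81) were higher in AKO_8C (1.77%) and 85 were lower (0.673%), together 2.44% of the genes. Genes of the integrated stress response, tRNA charging and heat production were among those that rose, and leptin, a scavenger receptor of macrophages, lipogenic genes and antiviral genes were among those that fell. Each gene was tested with limma on log2(FPKM + 1), and a gene was called at a Benjamini-Hochberg adjusted p of 0.05. A gene said to differ by a value in log2 has that log2 fold change of AKO_8C over WT_8C, given ± its SE. The median log2 fold change of AKO_8C over WT_8C was 0.67 for the genes called higher and -0.68 for those called lower, and it was 0.03 over all genes tested, of which 55.3% were positive. For 307 of the 308 called genes the libraries of the groups did not overlap, as also held for 24.6% of all genes tested (15.8% with AKO_8C above and 8.83% with AKO_8C below). Before adjustment, p was below 0.05 for 1560 higher genes (12.3%) and 958 lower genes (7.58%). In bulk tissue a level can differ through the number of cells of a type or the RNA per cell, and these cannot be told apart. The number of calls rested on every library. It was 210 without AKO_8C replicate 1, 172 without AKO_8C replicate 2, 24 without AKO_8C replicate 3, 88 without WT_8C replicate 1, 141 without WT_8C replicate 2 and 47 without WT_8C replicate 3, and 35 with the 6 cold libraries fitted alone. The 35 included 3 genes of the integrated stress response, 4 of the thermogenic programme, 2 of fatty acid oxidation and 1 of the interferon response, and none of ER folding and degradation, lipogenesis or adhesion. Fgf21 was not among them (limma adjusted p 0.0504 in that fit). The balance of directions depended on scaling between libraries, with 189 higher and 96 lower under median ratio scaling, 152 and 128 under upper quartile scaling, and 106 and 114 under scaling to an equal sum.

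**Figure D1:**
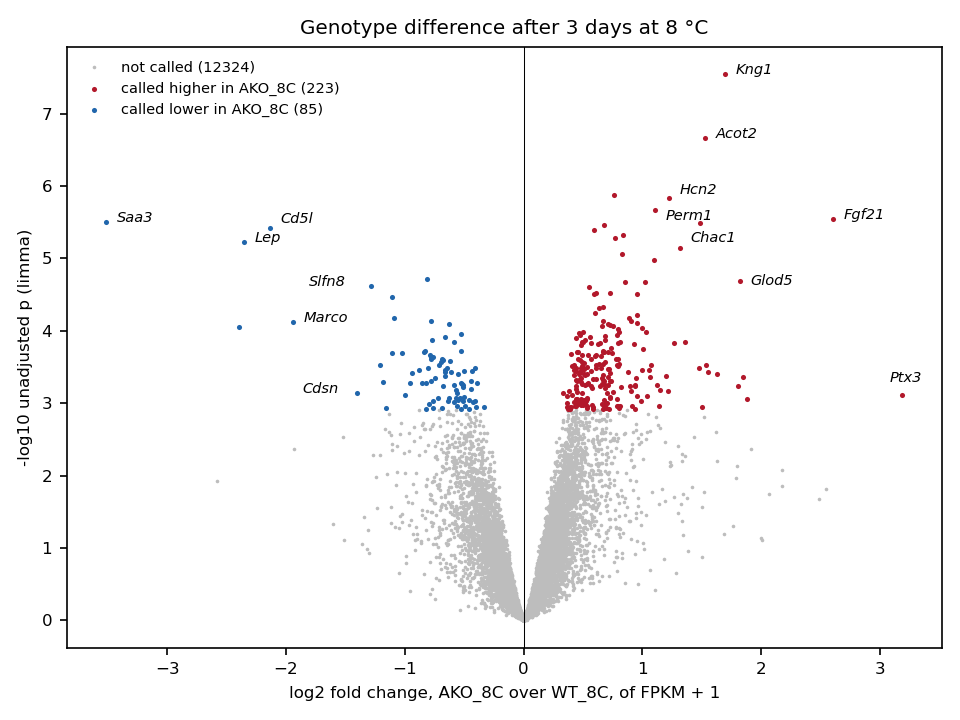
Log2 fold change of AKO_8C over WT_8C (x axis, of FPKM + 1) against -log10 of the unadjusted limma p (y axis) for the 12632 genes tested, 1 point per gene, red where called higher in AKO_8C (223) and blue where called lower (85). Kng1 and Acot2 have the smallest p, Ptx3 the highest fold change at 3.19 and Saa3 the lowest at -3.51.

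The genes called in all 6 fits that left out 1 library numbered 19, of which 15 were higher and 4 lower in AKO_8C. The 15 were Fgf21, Chac1, Wars and Eprs of the stress and tRNA charging genes, Acot2, Perm1, Ckb, Sat1, Hcn2, Slc4a4, Plekhm2, Rnf185, Glod5 and Kng1, and the predicted gene A530050N04Rik. The 4 were Lep, Saa3, Cd5l and Mfsd12. A further 88 of the 308 were called in none of these fits.

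The integrated stress response had the most calls of any pathway list. Of 36 tested members, 16 were called higher in AKO_8C and 1 was called lower, and the median log2 fold change was 0.51, against 0.03 for all genes tested. Of the 36, 31 were positive and 5 negative, and before adjustment 22 higher and 1 lower had p below 0.05. The members called higher numbered 10 without AKO_8C replicate 1, 8 without AKO_8C replicate 2, 5 without AKO_8C replicate 3, 6 without WT_8C replicate 1, 9 without WT_8C replicate 2 and 5 without WT_8C replicate 3. Fgf21, a hormone made by liver and by thermogenic fat (chromosome 7, 45613890 to 45615490), was 35.04, 44.03 and 17.9 FPKM in AKO_8C, against 4.33, 2.31 and 6.75 FPKM in WT_8C. The lowest AKO_8C library was thus well above the highest WT_8C library (log2 fold change 2.60, SE 0.32, limma adjusted p 0.00460). Chac1, an enzyme that degrades glutathione, was 12.2, 9.53 and 15.1 FPKM in AKO_8C, against 3.38, 4.27 and 5.27 FPKM in WT_8C, again with no overlap (log2 fold change 1.31, SE 0.18, limma adjusted p 0.00615). The secreted hormone Gdf15 was 8.34, 14.4 and 4.76 FPKM in AKO_8C, against 1.999, 2.78 and 1.98 FPKM in WT_8C, where AKO_8C replicate 2 was highest and the groups stayed apart (log2 fold change 1.54, SE 0.31, limma adjusted p 0.0316). Trib3, a pseudokinase induced by ATF4 and CHOP, was 22.9, 34.2 and 19.1 FPKM in AKO_8C, against 6.94, 5.29 and 10.5 FPKM in WT_8C. Each AKO_8C library exceeded each WT_8C library (log2 fold change 1.63, SE 0.34, limma adjusted p 0.0323).

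The transcription factors of the programme were also called. Atf4, its central regulator, was 189.8, 216 and 189 FPKM in AKO_8C, against 105, 135 and 124 FPKM in WT_8C, without overlap (log2 fold change 0.71, SE 0.14, limma adjusted p 0.0293). Its relative Atf5, linked to the mitochondrial stress response, was the most abundant of the 3 at 437, 538 and 498 FPKM in AKO_8C, against 280.2, 302 and 342 FPKM in WT_8C (log2 fold change 0.67, SE 0.14, limma adjusted p 0.0352). Ddit3, which encodes CHOP, was 59.1, 51.1 and 35.4 FPKM in AKO_8C, against 26.3, 28.6 and 33.5 FPKM in WT_8C. Its groups nearly met, with AKO_8C replicate 3 just above WT_8C replicate 3 (log2 fold change 0.68, SE 0.16, limma adjusted p 0.0464). Mthfd2, a mitochondrial enzyme of folate metabolism, differed by 0.91 ± 0.15 log2 (limma adjusted p 0.0245) and Vldlr, a lipoprotein receptor, by 0.96 ± 0.15 log2 (limma adjusted p 0.0147).

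All 6 aminoacyl-tRNA synthetases on the list rose, each by less than 1 on the log2 scale. Wars, the tryptophanyl-tRNA synthetase, was 50.6, 52.3 and 53.2 FPKM in AKO_8C, against 34.05, 32.9 and 35.5 FPKM in WT_8C, with a narrow spread in each group (log2 fold change 0.59, SE 0.07, limma adjusted p 0.00460). Eprs, the glutamyl-prolyl-tRNA synthetase, was named for its small p and is not on the list. It was 40.7, 40.2 and 42.6 FPKM in AKO_8C, against 25.9, 24.96 and 25.1 FPKM in WT_8C, again with a narrow spread (log2 fold change 0.68, SE 0.08, limma adjusted p 0.00460). Gars differed by 0.60 ± 0.10 log2 (limma adjusted p 0.0233), Nars by 0.54 ± 0.10 log2 (limma adjusted p 0.0298), Cars by 0.44 ± 0.09 log2 (limma adjusted p 0.0318), Aars by 0.44 ± 0.10 log2 (limma adjusted p 0.0492) and Sars by 0.33 ± 0.07 log2 (limma adjusted p 0.0414), these being the synthetases for glycine, asparagine, cysteine, alanine and serine. Xpot, the exportin that carries tRNA out of the nucleus, differed by 0.48 ± 0.10 log2 (limma adjusted p 0.0316). Aars, Cars, Sars and Xpot were called in none of the fits that left out 1 library. The member called lower was Stc2, a secreted glycoprotein that ATF4 induces in cultured cells, at 2.41, 3.38 and 2.26 FPKM in AKO_8C, against 12.6, 5.30 and 5.71 FPKM in WT_8C (log2 fold change -1.19, SE 0.25, limma adjusted p 0.0353). Sesn2, Ppp1r15a and Slc7a1 did not pass, differing by 0.73 ± 0.20 log2 (limma adjusted p 0.0760) for Sesn2, 0.68 ± 0.18 log2 (limma adjusted p 0.0684) for Ppp1r15a and 0.55 ± 0.14 log2 (limma adjusted p 0.0590) for Slc7a1. The listed genes of amino acid supply Asns, Psat1, Phgdh, Psph, Slc7a11, Slc7a5 and Slc3a2 were not among the calls.

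**Figure D2:**
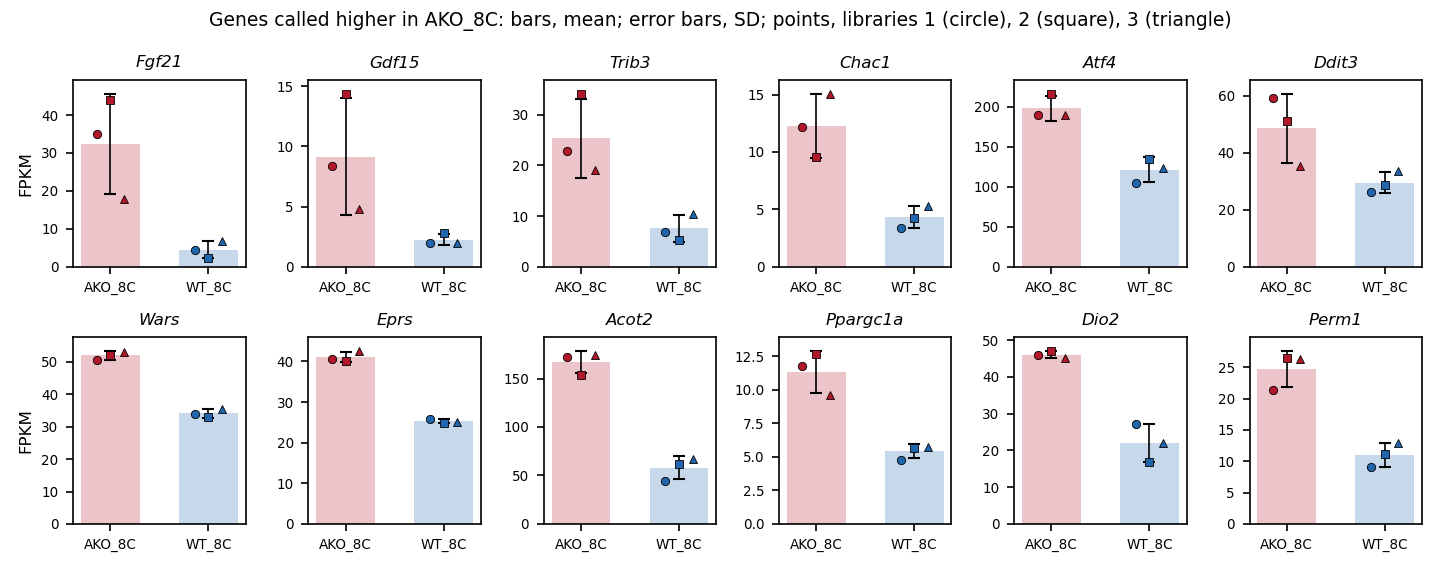
FPKM in AKO_8C (red, left) and WT_8C (blue, right) for 12 genes called higher in AKO_8C, with bars for the mean, error bars for the SD of 3 libraries and a point for each library. The groups do not overlap in any of the 12, with narrow spreads in Wars and Eprs and wide ones in Fgf21 and Gdf15.

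ATF4 binds with C/EBP proteins at the C/EBP-ATF response element, whose core was searched for as TGATGNAA on both strands of the 250 bases before each gene start. RefSeq promoters (GRCm38.p6) were found for 13 of the 16 called members, and 5 of the 13 held a match. A match was present in 3.45% of all 32851 promoters and in 2.38% of all 9575 tested genes with an entry. It was present in 6.15% of the 179 genes called higher with an entry and in 5.08% of the 59 called lower. Among the 30 tested members of the list with an entry, called or not, 9 held a match. The list is made up of genes chosen for this response, so a high share in it was likely whatever the genotype difference. The 5 promoters are shown because their genes rose together and share these letters, given in capitals in the direction of transcription.
Fgf21, chr7:45615491-45615740, minus strand: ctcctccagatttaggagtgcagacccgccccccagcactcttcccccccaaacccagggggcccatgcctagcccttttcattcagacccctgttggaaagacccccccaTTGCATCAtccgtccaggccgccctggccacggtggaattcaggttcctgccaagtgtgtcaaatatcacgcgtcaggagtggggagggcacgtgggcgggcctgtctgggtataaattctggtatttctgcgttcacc
Chac1, chr2:119350992-119351241, plus strand: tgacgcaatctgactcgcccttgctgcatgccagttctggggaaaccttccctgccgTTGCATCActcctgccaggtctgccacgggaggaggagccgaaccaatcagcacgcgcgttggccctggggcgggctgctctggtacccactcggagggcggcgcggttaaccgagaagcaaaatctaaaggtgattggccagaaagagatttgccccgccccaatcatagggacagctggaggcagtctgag
Vldlr, chr19:27216770-27217019, plus strand: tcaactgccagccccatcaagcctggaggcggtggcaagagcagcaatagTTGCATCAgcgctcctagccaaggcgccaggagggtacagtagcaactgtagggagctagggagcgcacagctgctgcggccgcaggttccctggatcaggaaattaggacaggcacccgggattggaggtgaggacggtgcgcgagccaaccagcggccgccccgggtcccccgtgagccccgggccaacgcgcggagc
Gars, chr6:55037751-55038000, plus strand: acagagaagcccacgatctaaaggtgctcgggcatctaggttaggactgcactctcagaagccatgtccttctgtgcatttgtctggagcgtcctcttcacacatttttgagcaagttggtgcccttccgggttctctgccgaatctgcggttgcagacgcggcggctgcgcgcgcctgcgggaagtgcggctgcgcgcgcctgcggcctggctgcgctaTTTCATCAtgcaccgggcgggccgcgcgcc
Aars, chr8:111033592-111033841, plus strand: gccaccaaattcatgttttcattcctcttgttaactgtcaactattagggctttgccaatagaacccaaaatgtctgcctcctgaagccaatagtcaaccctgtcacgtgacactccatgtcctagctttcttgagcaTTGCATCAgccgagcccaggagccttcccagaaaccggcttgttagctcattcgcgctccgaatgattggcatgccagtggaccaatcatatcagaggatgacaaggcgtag
In all 5 the match reads on the strand opposite to the gene, at positions -139 in Fgf21, -193 in Chac1, -200 in Vldlr, -30 in Gars and -112 in Aars, counted from the gene start. The element of the unfolded protein response, TGACGTGG, was found in none of the promoters of the 30 tested members with an entry and in 0.563% of all promoters. At so low a share, no match among 30 genes was likely beforehand, and no conclusion is drawn from it. A match is a description of the letters, and binding was not measured.

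Of 29 genes of ER folding and degradation, 4 were called higher in AKO_8C and none lower, with a median of 0.11, while before adjustment 7 higher and 1 lower had p below 0.05. The count was 0 without AKO_8C replicate 3 or WT_8C replicate 2 and 1 without any of the other 4 libraries. Hspa5, the ER chaperone BiP, was 199, 204 and 199.9 FPKM in AKO_8C, against 156, 140.1 and 143 FPKM in WT_8C. The AKO_8C libraries were close together and all exceeded WT_8C (log2 fold change 0.46, SE 0.09, limma adjusted p 0.0304). Dnajb9, a BiP cofactor that XBP1s induces, was 74.6, 61.02 and 84.4 FPKM in AKO_8C, against 50.9, 38.9 and 44.1 FPKM in WT_8C, without overlap (log2 fold change 0.70, SE 0.16, limma adjusted p 0.0413). Herpud1, of ER-associated degradation, differed by 0.69 ± 0.12 log2 (limma adjusted p 0.0267) and Ero1l, an oxidase that supports disulphide formation, by 0.66 ± 0.14 log2 (limma adjusted p 0.0360). None of 24 genes of ER translocation was called by limma, their median was 0.05, and before adjustment 0 higher and 1 lower had p below 0.05. Sec61b, a subunit of the translocon, was that gene, differing by -0.34 ± 0.12 log2 (limma adjusted p 0.134). None of 8 transcripts that IRE1 is reported to cut was called, 0 had p below 0.05 before adjustment, and they ranged from -0.17 to 0.01. Bloc1s1, a widely used reporter of this cleavage, was 179, 196 and 197 FPKM in AKO_8C, against 229.5, 189 and 203 FPKM in WT_8C, with the groups overlapping (log2 fold change -0.11, SE 0.11, limma adjusted p 0.593).

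Of 31 tested genes of the thermogenic programme, 7 were called higher in AKO_8C and none lower, with a median of 0.64. Those called were Ppargc1a, Dio2, Kcnk3, Gyk, Zfp516, Letmd1 and Atp2a2. The count was 3 without AKO_8C replicate 1, 1 without AKO_8C replicate 2 or WT_8C replicate 1, and 0 without any of the other 3 libraries, and before adjustment 17 higher and 1 lower had p below 0.05. Ppargc1a, the coactivator of mitochondrial biogenesis, was 11.8, 12.7 and 9.61 FPKM in AKO_8C, against 4.81, 5.69 and 5.77 FPKM in WT_8C, without overlap (log2 fold change 0.94, SE 0.20, limma adjusted p 0.0362). Dio2, the deiodinase that makes active thyroid hormone in brown fat, was 45.96, 47.1 and 45.3 FPKM in AKO_8C, against 27.2, 16.8 and 22.04 FPKM in WT_8C. Its AKO_8C libraries were close together, above all of WT_8C (log2 fold change 1.06, SE 0.21, limma adjusted p 0.0316). Letmd1, a mitochondrial protein needed for heat production in brown fat, was 219, 311 and 293 FPKM in AKO_8C, against 139.9, 165 and 190.4 FPKM in WT_8C (log2 fold change 0.72, SE 0.15, limma adjusted p 0.0353).

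Other called members act in the membrane or in lipid cycling. Kcnk3, a potassium channel of brown adipocytes, differed by 0.91 ± 0.21 log2 (limma adjusted p 0.0492). Gyk, the glycerol kinase that lets adipocytes reuse glycerol, differed by 0.99 ± 0.23 log2 (limma adjusted p 0.0466). Atp2a2, a calcium pump of the ER, differed by 0.49 ± 0.10 log2 (limma adjusted p 0.0360) and Zfp516, a transcription factor of the Ucp1 promoter, by 0.49 ± 0.10 log2 (limma adjusted p 0.0316). Ucp1, which uncouples respiration and was singled out after its values were seen, was 2459, 3412 and 3574 FPKM in AKO_8C, against 1986, 2011 and 2008 FPKM in WT_8C. All 3 AKO_8C values were above WT_8C and the difference did not pass (log2 fold change 0.63, SE 0.57, limma adjusted p 0.579). The fit estimated each gene's variance over all 12 libraries, so this SE also takes in the spread of libraries not held in the cold. The failed test therefore does not show that Ucp1 varied widely among the cold libraries.

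Respiration genes showed the same sign in nearly every member without reaching the call. Of 75 subunits of oxidative phosphorylation, 71 were positive, 53 were higher with p below 0.05 before adjustment and none was called, with a median of 0.33 and a range of -0.29 to 0.51. Their FPKM summed to 76940, 79370 and 82870 in AKO_8C, against 63640, 63330 and 70910 in WT_8C, so the sums did not overlap. Uqcrc2, a core subunit of complex III, was 497, 541 and 577 FPKM in AKO_8C, against 378, 364 and 393 FPKM in WT_8C (log2 fold change 0.51, SE 0.13, limma adjusted p 0.0654). In the tricarboxylic acid cycle 20 of 21 genes were positive, 17 had p below 0.05 before adjustment and none was called, with a median of 0.47. Citrate synthase, Cs, was 782, 901 and 1008 FPKM in AKO_8C, against 564, 552 and 635 FPKM in WT_8C (log2 fold change 0.61, SE 0.16, limma adjusted p 0.0720).

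Mitochondrial chaperones and proteases had 3 of 16 members called higher and none lower, with a median of 0.28. The count was 2 without AKO_8C replicate 1 and 0 without any of the other 5 libraries. Hspa9, the chaperone mortalin that pulls proteins into the matrix, was 557, 567 and 601 FPKM in AKO_8C, against 366, 349 and 365 FPKM in WT_8C, with every AKO_8C library far above WT_8C (log2 fold change 0.67, SE 0.13, limma adjusted p 0.0293). Its cofactor Dnaja3 differed by 0.57 ± 0.10 log2 (limma adjusted p 0.0267) and Phb, the inner membrane scaffold prohibitin, by 0.43 ± 0.10 log2 (limma adjusted p 0.0470). Timm10, which guides inner membrane proteins between the membranes, was named for its small p and differed by 0.55 ± 0.08 log2 (limma adjusted p 0.0137). Of 31 proteasome subunits all were positive and 2 were called higher, Psmb5 by 0.41 ± 0.09 log2 (limma adjusted p 0.0435) and Psmc2 by 0.49 ± 0.10 log2 (limma adjusted p 0.0316), with a median of 0.18, and under the scaling alternatives 28 to 30 of them were positive. Psmb5 was called in none of the fits that left out 1 library, and Psmc2 in those without AKO_8C replicate 2 or WT_8C replicate 1.

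Fatty acid oxidation had 4 of 31 members called higher and none lower, with a median of 0.41, and 20 were higher with p below 0.05 before adjustment. The count was 1 without AKO_8C replicate 3, WT_8C replicate 1 or WT_8C replicate 3, and 2 without any of the other 3 libraries. Acot2, a mitochondrial acyl-CoA thioesterase (chromosome 12, 83987861 to 83993877), was 172, 154 and 174 FPKM in AKO_8C, against 44.7, 61.4 and 67.5 FPKM in WT_8C. The groups were widely apart (log2 fold change 1.53, SE 0.15, limma adjusted p 0.00137). Its neighbours on chromosome 12 are near copies among which reads can be shared, and Acot1 differed by 0.94 ± 0.20 log2 (limma adjusted p 0.0361) and Acot4 by 0.93 ± 0.17 log2 (limma adjusted p 0.0267). Cpt1a, which admits long-chain fatty acids to mitochondria, differed by 0.48 ± 0.10 log2 (limma adjusted p 0.0341). It was called in none of the fits that left out 1 library. Acot1 passed only in the fit without WT_8C replicate 2 and Acot4 only in that without AKO_8C replicate 2, while Acot2 passed in all 6. Pdk4, a kinase that spares glucose by switching off pyruvate dehydrogenase, was 745, 844 and 985 FPKM in AKO_8C, against 344, 406 and 275 FPKM in WT_8C. It was not called (log2 fold change 1.33, SE 0.39, limma adjusted p 0.0904). As for Ucp1, this SE takes in the spread of all 12 libraries and not of the cold libraries alone. In glycolysis and glucose uptake 2 of 23 were called higher, Pfkp by 0.48 ± 0.09 log2 (limma adjusted p 0.0267) and Pgk1 by 0.51 ± 0.10 log2 (limma adjusted p 0.0316). The count was 2 without AKO_8C replicate 1, 1 without WT_8C replicate 2 and 0 without any of the other 4 libraries.

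Several genes outside the lists moved with small error. Perm1, a muscle and brown fat factor induced by PGC-1, was 21.4, 26.5 and 26.3 FPKM in AKO_8C, against 9.09, 11.1 and 12.8 FPKM in WT_8C, without overlap (log2 fold change 1.10, SE 0.13, limma adjusted p 0.00460). Ckb, the creatine kinase of the creatine cycle in beige fat, was 198, 223 and 241 FPKM in AKO_8C, against 120.2, 131 and 135 FPKM in WT_8C (log2 fold change 0.77, SE 0.10, limma adjusted p 0.00506). Sat1, which acetylates polyamines, was 162, 159 and 162 FPKM in AKO_8C, against 76.96, 104 and 90.8 FPKM in WT_8C. Its 3 AKO_8C libraries were nearly equal (log2 fold change 0.84, SE 0.11, limma adjusted p 0.00506). Slc4a4, a sodium bicarbonate cotransporter, differed by 1.10 ± 0.15 log2 (limma adjusted p 0.00773), Got1, the cytosolic aspartate aminotransferase, by 1.02 ± 0.15 log2 (limma adjusted p 0.0128), and Rnf185, an ER ubiquitin ligase, by 0.83 ± 0.11 log2 (limma adjusted p 0.00684). Kng1, kininogen (chromosome 16, 23058220 to 23082078), was 2.41, 2.23 and 2.28 FPKM in AKO_8C, against 0, 0 and 0.0644 FPKM in WT_8C, and it has a close paralog, Kng2, with which reads can be shared (log2 fold change 1.69, SE 0.14, limma adjusted p 0.000363). Hcn2, a pacemaker channel subunit, was 14.1, 17.2 and 14.7 FPKM in AKO_8C, against 4.72, 6.19 and 7.19 FPKM in WT_8C (log2 fold change 1.23, SE 0.14, limma adjusted p 0.00460).

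Lep, the adipocyte hormone leptin (chromosome 6, 29060221 to 29073876), had the second largest decrease among the genes named by size. It was 10.1, 13.7 and 13.7 FPKM in AKO_8C, against 88.9, 68.8 and 49.8 FPKM in WT_8C. The highest AKO_8C library was far below the lowest WT_8C library (log2 fold change -2.35, SE 0.31, limma adjusted p 0.00540). Lep was the only one of 16 adipocyte markers called, and the median of the 16 was -0.21. Without WT_8C replicate 1, which had the highest sum of these markers, the median was 0.02, and without each other library it lay between -0.33 and -0.14. Adiponectin, Adipoq, was 1259, 1032 and 1215 FPKM in AKO_8C, against 2113, 1482 and 1431 FPKM in WT_8C, and it was not called (log2 fold change -0.50, SE 0.17, limma adjusted p 0.132). Among 18 adipokines and batokines 3 were called higher, Vegfa, Fgf21 and Gdf15, and Lep was called lower. Vegfa, which drives vessel growth, was 240.2, 204 and 289 FPKM in AKO_8C, against 158, 154 and 163 FPKM in WT_8C (log2 fold change 0.61, SE 0.12, limma adjusted p 0.0298). With 1 library left out, Vegfa passed in the fit without AKO_8C replicate 2 and Gdf15 in that without AKO_8C replicate 3, while Fgf21 and Lep passed in all 6.

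Lipogenic genes had 3 of 22 members called lower and 1 called higher, with a median of -0.14. The number called lower was 2 without AKO_8C replicate 1 or 2, 1 without WT_8C replicate 1 or 2 and 0 without AKO_8C replicate 3 or WT_8C replicate 3, and the median ranged from -0.41 without AKO_8C replicate 1 to -0.0053 without AKO_8C replicate 3. Mid1ip1, which activates acetyl-CoA carboxylase, was 33.5, 32.2 and 21.8 FPKM in AKO_8C, against 45.5, 62.97 and 86.3 FPKM in WT_8C (log2 fold change -1.10, SE 0.21, limma adjusted p 0.0293). Srebf1, the transcription factor of lipid synthesis, was 95.4, 73.6 and 64.6 FPKM in AKO_8C, against 119, 157 and 137 FPKM in WT_8C, without overlap (log2 fold change -0.82, SE 0.18, limma adjusted p 0.0360). Scd2, a fatty acid desaturase, was 38.05, 60.5 and 45.5 FPKM in AKO_8C, against 113, 79.9 and 101 FPKM in WT_8C (log2 fold change -1.02, SE 0.20, limma adjusted p 0.0293), while its relative Scd3 was higher at 2.69, 1.45 and 1.99 FPKM in AKO_8C, against 0.204, 0.446 and 0.919 FPKM in WT_8C (log2 fold change 1.01, SE 0.19, limma adjusted p 0.0293). Scd1 was listed at 0 in all 6 libraries and is not among the genes tested, and near copies of the family can share reads. Of 22 genes of cholesterol synthesis, Mvd, the mevalonate decarboxylase, was called lower at 9.96, 8.04 and 7.41 FPKM in AKO_8C, against 12.7, 16.2 and 16.9 FPKM in WT_8C (log2 fold change -0.78, SE 0.13, limma adjusted p 0.0245), and none was called higher. Mvd was not called without AKO_8C replicate 3 or WT_8C replicate 3. Of 24 genes of triglyceride storage and lipolysis, Hilpda, an inhibitor of the lipase ATGL, was called higher, by 0.90 ± 0.20 log2 (limma adjusted p 0.0400), with a median of 0.17. Igfals, which carries insulin-like growth factor in plasma, was the only call among 22 genes of the insulin and IGF axis, differing by -1.21 ± 0.24 log2 (limma adjusted p 0.0316). With 1 library left out, Hilpda passed without AKO_8C replicate 2 and Igfals without AKO_8C replicate 1, and neither passed in the other 5 fits of its kind.

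**Figure D3:**
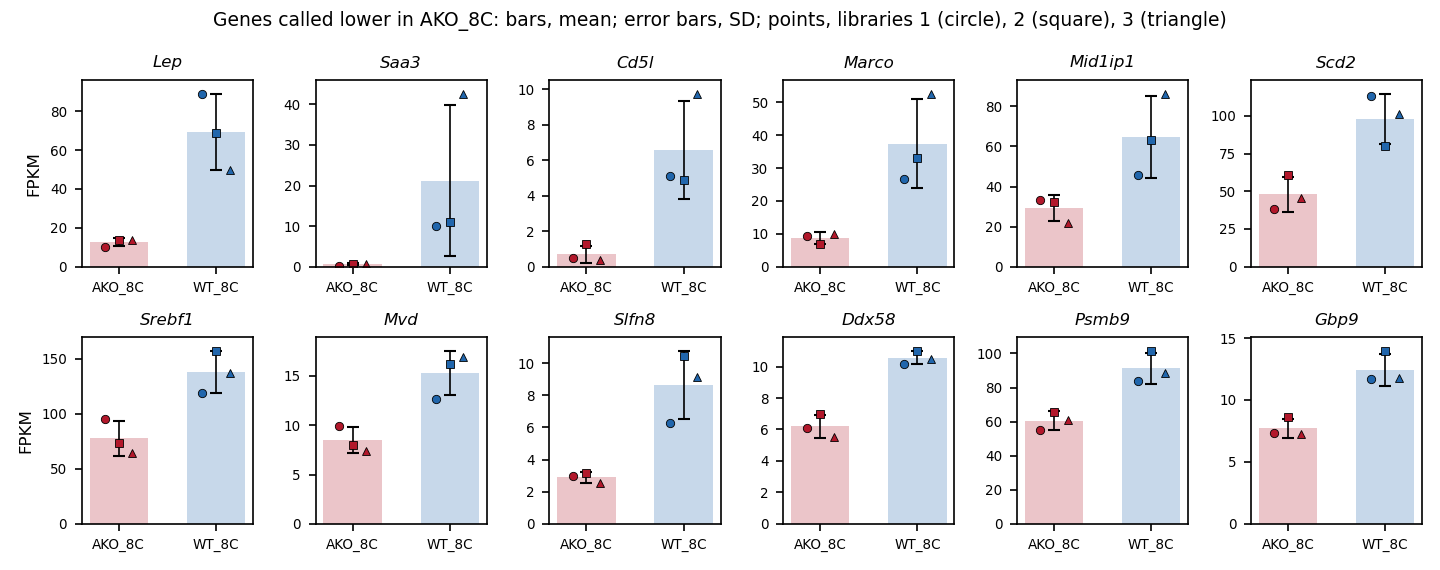
FPKM in AKO_8C (red, left) and WT_8C (blue, right) for 12 genes called lower in AKO_8C, with bars for the mean, error bars for the SD of 3 libraries and a point for each library. The groups do not overlap in any of the 12, and 1 WT_8C library of Saa3, replicate 3, lies far above the others at 42.6 FPKM.

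Saa3 and 2 genes of scavenging macrophages fell. Saa3, an acute phase apolipoprotein made by fat and macrophages (chromosome 7, 46711998 to 46719615), was 0.251, 0.766 and 0.753 FPKM in AKO_8C, against 10.04, 10.96 and 42.6 FPKM in WT_8C. All AKO_8C values were below 1 FPKM, which makes the fold change depend on the pseudocount (log2 fold change -3.51, SE 0.43, limma adjusted p 0.00460). Marco, a scavenger receptor, was 9.28, 6.78 and 10.04 FPKM in AKO_8C, against 26.5, 32.9 and 52.6 FPKM in WT_8C (log2 fold change -1.94, SE 0.33, limma adjusted p 0.0245), and Cd5l, a secreted macrophage protein, was 0.467, 1.26 and 0.372 FPKM in AKO_8C, against 5.08, 4.90 and 9.73 FPKM in WT_8C (log2 fold change -2.13, SE 0.27, limma adjusted p 0.00460). Both groups of libraries stayed apart in these 3 genes. Marco and Cd5l were the only calls among 13 scavenger macrophage markers, of which 8 were negative and 5 positive, with a median of -0.13. Before adjustment 0 higher and 6 lower of the 13 had p below 0.05. The groups did not overlap, with AKO_8C below, in 4 of the 13, against 8.83% of all genes tested. Siglec1, at 3.45, 3.60 and 2.28 FPKM in AKO_8C and 4.19, 8.85 and 6.42 FPKM in WT_8C, was among these 4. Retnla, Folr2, Fcna and Lyve1 overlapped. Saa3 and Ptx3 were the only calls among 14 acute phase genes. None of 15 general macrophage markers was called (before adjustment 2 higher and 0 lower had p below 0.05), and their sums were 770.4, 852.9 and 640.8 FPKM in AKO_8C and 523.3, 1143 and 773.7 FPKM in WT_8C.

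Antiviral and interferon-induced genes lay lower in AKO_8C. Of 27 tested, 3 were called lower and none higher, 22 were lower with p below 0.05 before adjustment, and the median was -0.74. The number called lower was 6 without AKO_8C replicate 2, 0 without AKO_8C replicate 3 and 1 without any of the other 4 libraries. Slfn8, a schlafen protein of immune cells whose close relatives can share its reads, was 2.97, 3.19 and 2.53 FPKM in AKO_8C, against 6.28, 10.4 and 9.15 FPKM in WT_8C, without overlap (log2 fold change -1.28, SE 0.19, limma adjusted p 0.0137), and Ddx58, which encodes the viral RNA sensor RIG-I, was 6.11, 6.98 and 5.52 FPKM in AKO_8C, against 10.2, 10.98 and 10.5 FPKM in WT_8C (log2 fold change -0.69, SE 0.13, limma adjusted p 0.0304). Ifit3, an antiviral effector, was 2.97, 10.4 and 2.90 FPKM in AKO_8C, against 11.6, 20.9 and 14.2 FPKM in WT_8C. Its highest AKO_8C library was below the lowest WT_8C library and it did not pass (log2 fold change -1.52, SE 0.41, limma adjusted p 0.0722). A further 6 called genes with small p belong to the same kind by what they are known for, and this grouping was made after their values were seen. Psmb9, a subunit of the immunoproteasome, differed by -0.58 ± 0.11 log2 (limma adjusted p 0.0267), Gbp9, a guanylate-binding protein, by -0.62 ± 0.11 log2 (limma adjusted p 0.0245), Sp100, a nuclear body protein, by -0.53 ± 0.09 log2 (limma adjusted p 0.0267), Trim34a by -0.77 ± 0.14 log2 (limma adjusted p 0.0267), Mov10, an RNA helicase, by -0.66 ± 0.12 log2 (limma adjusted p 0.0267), and Parp10 by -0.53 ± 0.10 log2 (limma adjusted p 0.0293).

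Markers of lymphocytes are given beside these genes, and their part in the result was not tested. The 13 T cell markers summed to 245.5, 314.4 and 335.8 FPKM in AKO_8C, against 338.5, 387.6 and 394.1 FPKM in WT_8C. These sums did not overlap, though AKO_8C replicate 3 and WT_8C replicate 1 nearly met. Sums without overlap were common among the lists, and were also seen for heat shock genes and proteasome subunits. None of the 13 was called, the median was -0.33, and before adjustment 0 higher and 5 lower had p below 0.05. The 12 B cell markers summed to 808.6, 358.5 and 453.3 FPKM in AKO_8C, against 611.3, 872.6 and 851.8 FPKM in WT_8C. None was called, all 12 were negative with a median of -0.60, and before adjustment 0 higher and 6 lower had p below 0.05. Without AKO_8C replicate 1, the highest of its group, 6 were called lower. Skeletal muscle genes summed to 849, 1231 and 487.1 FPKM in AKO_8C and to 905.1, 1750 and 2033 FPKM in WT_8C, with none of 15 called (before adjustment 0 higher and 4 lower had p below 0.05). All 15 were negative, with a median of -0.91, and it was -0.515 without AKO_8C replicate 3 and -0.60 without WT_8C replicate 3. In the epithelial list Cdsn, a protein of cornified cell contacts, was called lower at 9.12, 4.53 and 6.74 FPKM in AKO_8C, against 18.2, 21.8 and 17.4 FPKM in WT_8C (log2 fold change -1.40, SE 0.31, limma adjusted p 0.0414), and WT_8C replicate 1, high in other epithelial genes, was not its highest library. Cdsn passed in 1 fit that left out a library, AKO_8C replicate 1. The part of epithelium in the difference of Cdsn was not tested. The median of the 7 tested epithelial markers was -0.58, and it was -0.15 without WT_8C replicate 1. No marker of the endothelial, fibroblast and progenitor, smooth muscle and pericyte, Schwann cell, neutrophil, mast cell, erythrocyte or sex-linked lists was called, and their medians lay between -0.22 and 0.20.

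**Figure D4:**
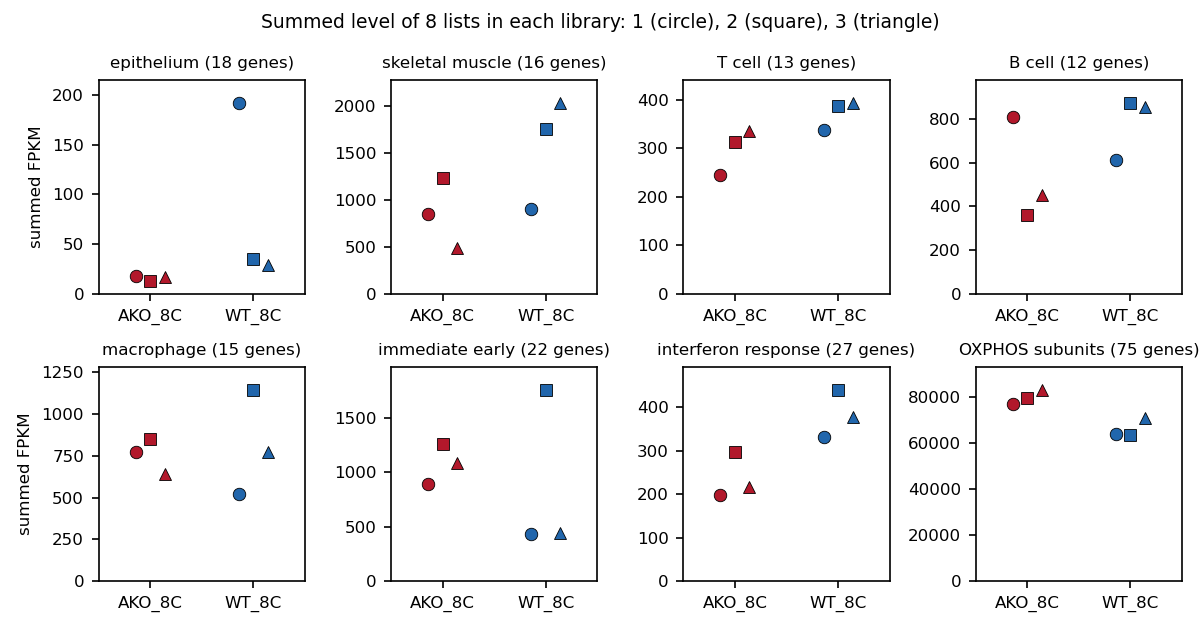
Summed FPKM (y axis) of 8 lists in each library, AKO_8C in red on the left and WT_8C in blue on the right, with 1 point per library. Epithelial genes are highest in WT_8C replicate 1 at 192.2 FPKM and immediate early genes in WT_8C replicate 2 at 1757 FPKM, while T cell, interferon response and OXPHOS sums do not overlap between the groups.

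Genes of adhesion and wound repair had 3 of 26 members called higher and none lower, with a median of 0.48. Itga5, the fibronectin receptor subunit, was 29.8, 12.97 and 38.3 FPKM in AKO_8C, against 6.25, 12.01 and 6.13 FPKM in WT_8C (log2 fold change 1.55, SE 0.32, limma adjusted p 0.0318). Emp1, an epithelial membrane protein, was 45.8, 20.9 and 56.7 FPKM in AKO_8C, against 11.3, 16.3 and 11.9 FPKM in WT_8C (log2 fold change 1.48, SE 0.30, limma adjusted p 0.0316), and Tnfrsf12a, the receptor of the cytokine TWEAK, was 70.4, 44.7 and 77.6 FPKM in AKO_8C, against 17.5, 32.7 and 23.5 FPKM in WT_8C (log2 fold change 1.36, SE 0.25, limma adjusted p 0.0267). In all 3 genes AKO_8C replicate 2 was the lowest of its group and WT_8C replicate 2 the highest of its group, and in Itga5 the groups nearly met. The same libraries overlapped in Ptx3, a secreted pentraxin, at 31.2, 3.62 and 37.98 FPKM in AKO_8C, against 0.391, 4.13 and 0.0742 FPKM in WT_8C (log2 fold change 3.19, SE 0.71, limma adjusted p 0.0430). The list had 5 members called without AKO_8C replicate 2, 6 without WT_8C replicate 2 and 0 without any of the other 4 libraries.

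Immediate early genes, which respond within minutes to stimulation, were not called in any of 21 members, although 20 were positive and the median was 0.59. Before adjustment 7 higher and 0 lower had p below 0.05. Their sum was 895.7, 1258 and 1082 FPKM in AKO_8C, against 431.5, 1757 and 443.7 FPKM in WT_8C. WT_8C replicate 2 was the highest of all 6, and the other WT_8C libraries the lowest. Without WT_8C replicate 2, 11 of the 21 were called higher and the median was 0.98. The median was 0.25 without WT_8C replicate 1 and 0.38 without WT_8C replicate 3, with 18 of the 21 positive and 0 called in each fit. Fosl2, a subunit of the AP-1 factor, was 28.7, 25.4 and 36.6 FPKM in AKO_8C, against 6.44, 27.95 and 9.37 FPKM in WT_8C (log2 fold change 1.24, SE 0.38, limma adjusted p 0.102). Socs3, an inhibitor of cytokine signalling from the acute phase list, was 60.8, 31.7 and 97.4 FPKM in AKO_8C, against 10.6, 57.2 and 14.6 FPKM in WT_8C (log2 fold change 1.41, SE 0.50, limma adjusted p 0.141). Heat shock genes had none of 15 called (2 higher and 0 lower with p below 0.05 before adjustment). Of 20 genes of the oxidative stress response 2 were called higher, the thioredoxin reductase Txnrd1 by 0.48 ± 0.10 log2 (limma adjusted p 0.0353) and the sulfiredoxin Srxn1 by 0.95 ± 0.16 log2 (limma adjusted p 0.0245). Nfil3, a repressor of the clock, was the only call among 18 clock genes, higher at 21.4, 11.2 and 28.1 FPKM in AKO_8C, against 8.01, 7.43 and 7.61 FPKM in WT_8C (log2 fold change 1.20, SE 0.25, limma adjusted p 0.0327). With 1 library left out, Nfil3 passed in the fit without AKO_8C replicate 2 and Txnrd1 in that without AKO_8C replicate 1, while Srxn1 passed in all but those without AKO_8C replicate 3 or WT_8C replicate 3. None of 25 matrix genes was called (2 higher and 0 lower with p below 0.05 before adjustment), and none of 23 cell division genes (1 higher and 0 lower).

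**Figure D5:**
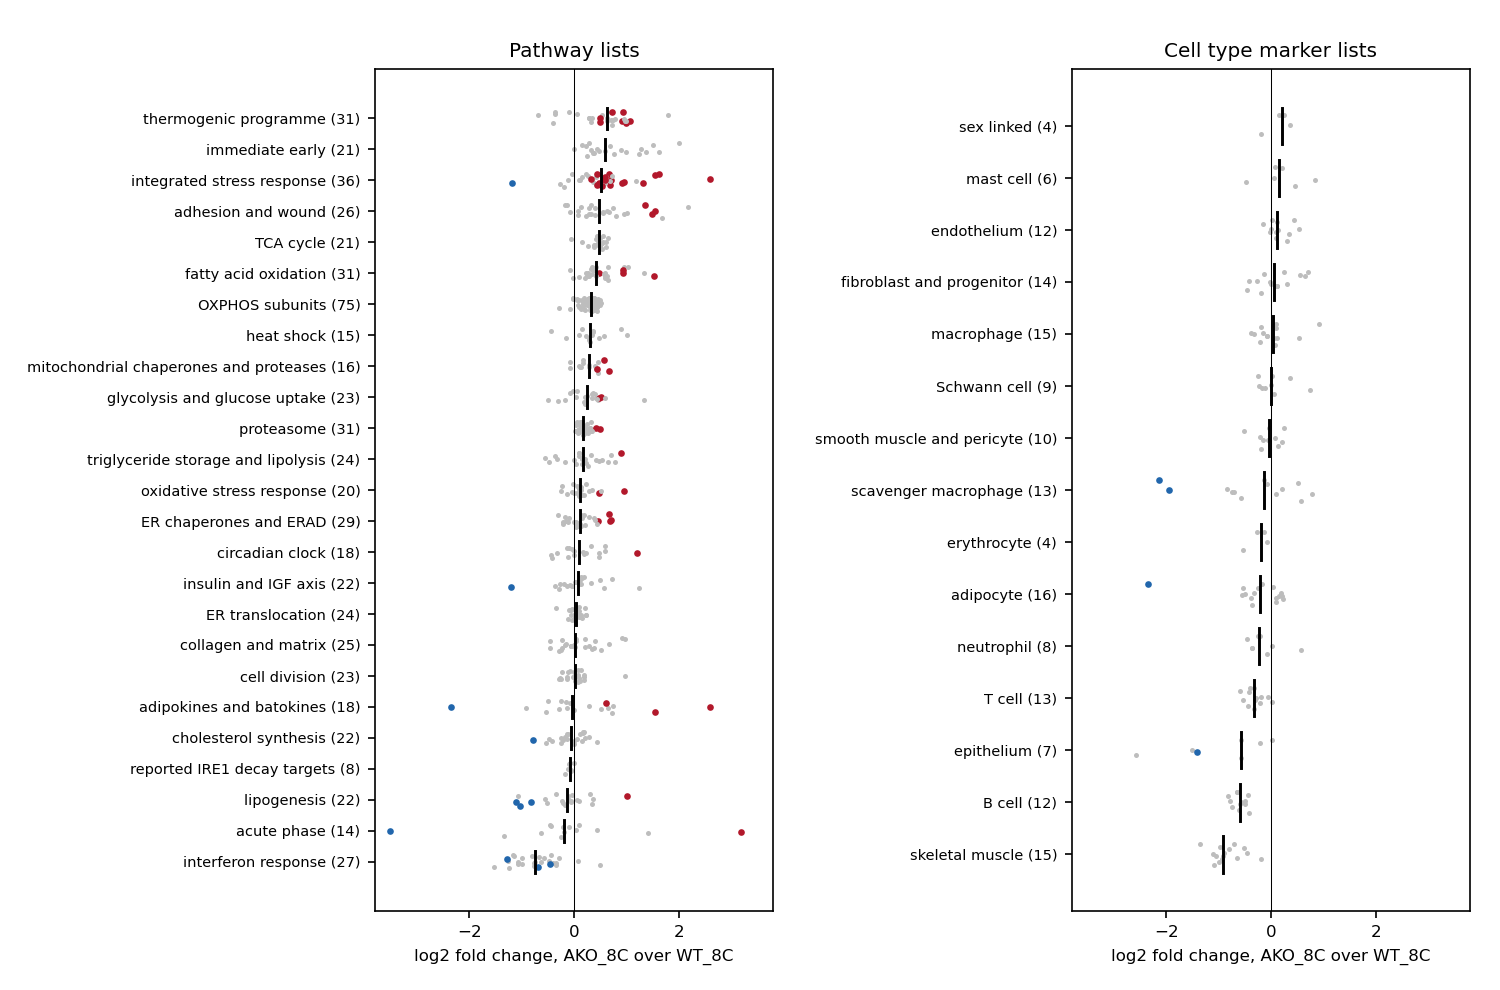
Log2 fold change of AKO_8C over WT_8C (x axis) for the tested members of each pathway list (left) and cell type marker list (right), 1 point per gene, red where called higher, blue where called lower and grey where not called, with a black line at each list's median and the number of tested members in parentheses. Thermogenic (0.64), immediate early (0.59) and integrated stress response (0.51) genes lie to the right of 0, and skeletal muscle (-0.91), interferon response (-0.74), B cell (-0.60) and epithelial (-0.58) genes to the left. Without WT_8C replicate 1 the epithelial median was -0.15.

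Most of these differences were not called at 30 °C. Of the 308 genes called after cold, 2 were also called between AKO_30C and WT_30C, Mrgprg, a Mas-related receptor, and Ifi204, an interferon-inducible gene in a family of near copies, named after its values were seen. Mrgprg was 25.6, 28.8 and 16.4 FPKM in AKO_8C, against 2.74, 8.08 and 8.59 FPKM in WT_8C (log2 fold change 1.80, SE 0.39, limma adjusted p 0.0362), with a log2 fold change at 30 °C of 2.51 (limma adjusted p 0.0293). Ifi204 was 17.6, 13.5 and 15.01 FPKM in AKO_8C, against 6.04, 10.2 and 5.96 FPKM in WT_8C, higher in AKO_8C, unlike the antiviral genes above (log2 fold change 0.99, SE 0.20, limma adjusted p 0.0316), and its difference at 30 °C was 1.29 (limma adjusted p 0.0293). Among the genes with the largest increase, Zfp949, a zinc finger gene, had 11.3, 11.7 and 13.8 FPKM in AKO_8C, against 2.64, 2.37 and 2.77 FPKM in WT_8C, and Morf4l1-ps1, a pseudogene that can take reads from its parent gene, had 3.07, 2.15 and 3.48 FPKM in AKO_8C, against 0.0860, 0.0904 and 0.0474 FPKM in WT_8C. Their fold changes were 1.88 and 1.85 at 8 °C (limma adjusted p 0.0456 and 0.0339), and they were 1.27 and 1.20 at 30 °C, where neither passed (limma adjusted p 0.211 and 0.192). The test of the difference between temperatures called 15 genes (0.119% of those tested), 13 of which were called at 8 °C, so for most genes a call at 8 °C alone does not show a larger difference there. For Fgf21 the difference at 8 °C exceeded that at 30 °C by 2.68 log2 and did not pass (limma adjusted p 0.0512).

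The authors' deposited table for this comparison, made from the same libraries, lists 549 genes higher and 526 lower in AKO_8C, each with an absolute log2 fold change of at least 0.585. It holds 201 of the 308 genes called here, which is 65.3% of these calls and 18.7% of the listed genes. All 201 have the same direction in both, which is nearly fixed beforehand because both rest on the same values. Of the listed genes, 905 were among the 12632 tested here and 916 are marked significant in the authors' deposited table. In the authors' deposited table Fgf21 has a log2 fold change of 2.86 (q 0.000301) and Lep one of -2.47 (q 0.000301), with no pseudocount. Ucp1 is listed there with a log2 fold change of 0.65 (q 0.0886). Ern1 and Xbp1 are not listed in the authors' deposited table.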

How the data were processed

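The deposited gene table holds FPKM for each library, made by the authors, as shown by values that are not whole numbers (99.986% of nonzero ones) and by group means equal to those in the authors' deposited comparison table in 2150 of 2150 cases (within 0.0001). Per the submitters' processing notes the tools were bcl2fastq, FastQC 0.11.3, TopHat2 2.0.14 and Cufflinks 2.2.1 with build mm10, and the annotation, strand setting and duplicate handling are not given in the sources used here. Per the file headers, the authors' deposited comparison table also gives a p-value, a q-value, a log2 fold change and the score of the authors' test. TopHat2 and Cufflinks values can share reads among paralogs. Depth is unknown.

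Genes at 1 FPKM or more in 3 of the 6 cold libraries were kept. Snora81 was left out of the tests, because it had 0 FPKM in 1 library and over 1000 FPKM in another, and 25 symbols turned into dates (19 tested) are not named. Log2(FPKM + 1) was fitted over all 12 libraries with limma 3.58.1 (R 4.3.3) as 4 group means, with trended variance, without covariates, in two-sided tests at a Benjamini-Hochberg adjusted p of 0.05. Tests for read counts do not suit FPKM. Figures and motif searches used Python 3.11.15. The labels give 3 mice per group, and same-numbered AKO_8C and WT_8C libraries did not deviate together, so numbers were not treated as pairs.

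Named genes were Ern1 and Xbp1, the 15 genes called higher and 15 called lower that had the largest fold changes among those with non-overlapping groups and a mean of 1 FPKM (predicted genes, small RNA genes and date symbols left out), members of a list where it is described (called ones first, up to 6 by smallest adjusted p), up to 12 more called genes per direction by smallest adjusted p, and genes called in the test between temperatures. Not every gene that this rule picks is reported here. The genes compared, the lists and the rule were chosen with earlier results of these data known. Positions are from RefSeq (GRCm38.p6). Alternatives were other filters, pseudocounts, scalings, variance models, a replicate block, the 6 cold libraries alone and each library left out.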

Additional observations from a re-analysis of the deposited data

Results flagged for a closer look

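The genotype difference changed between temperatures, by limma's test of the difference itself, for 15 genes. The values below are the log2 fold changes of AKO_8C over WT_8C minus those of AKO_30C over WT_30C. The difference was -3.99 for Saa3, -3.51 for Marco, -3.24 for Lep, -2.70 for Cd5l and -1.12 for Mfsd12, each of which was lower in AKO_8C. It was 0.68 for Wars, 0.98 for Sat1, 1.02 for Mrgbp, 1.20 for Perm1, 1.31 for Mreg, 1.32 for Hcn2, 1.56 for Kng1 and 1.58 for Acot2, each of which was higher in AKO_8C. For Ccl8, a chemokine, it was -2.17 and for C6, a complement component, -1.69, and neither was called at 8 °C, where Ccl8 differed by -0.76 ± 0.25 log2 (limma adjusted p 0.124) and C6 by -0.48 ± 0.19 log2 (limma adjusted p 0.192). In log2, ± stands for the SE. Marco differed by -1.94 at 8 °C and by 1.56 at 30 °C (limma adjusted p 0.0521), so its sign turned, though the 30 °C difference did not pass. Lep likewise differed by -2.35 at 8 °C and by 0.88 at 30 °C (limma adjusted p 0.227).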

How the results depend on the processing

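Beside 308 calls (223 higher, 85 lower), no filter on low values gave 172 (133 and 39), the 6 cold libraries alone 35 (27 and 8), a pseudocount of 0.1 gave 140 higher, scaling to an equal sum 106 higher and upper quartile scaling 128 lower. Leaving out 1 library gave 24 to 210 calls, 18 to 148 higher and 6 to 62 lower. The replicate block gave 439 calls (318 and 121), although same-numbered libraries did not deviate together (r -0.0862, 0.0687 and -0.0737). The test between temperatures called 15 genes, and 1 with no filter, 4 with a pseudocount of 0.1, 27 with the replicate block and 0 to 26 with 1 library left out. It could not be run on the cold libraries alone. The causes were not tested. Leaving out AKO_8C replicate 1 or 3 left no call between temperatures. Depth is unknown, so the counting error of calls near 1 FPKM, such as Kng1, could not be estimated.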
